A study of Homo sapiens with 14 samples.

Results

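The EGR, IER and ZFP36 genes, with SRF and MCL1, are immediate early genes, and 10 of them were taken by gene name from the 58780 genes of a PRO-seq count table: EGR1, EGR3, IER2, IER3, IER5, SRF, MCL1, ZFP36, ZFP36L1 and ZFP36L2. All 10 were found and were read across 14 libraries. The row of MCL1 also carries the symbol ADAMTSL4-AS1 and was matched by its gene identifier. EGR3 failed the filter on low counts, so 9 of the 10 were among the 21910 genes tested.

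PRO-seq (precision run-on sequencing) labels and sequences the RNA that engaged RNA polymerases extend in permeabilised cells, so a count reports transcription under way rather than stored mRNA. It was run on A549 cells, which derive from a human lung adenocarcinoma. GSK591 blocks PRMT5, an arginine methyltransferase of type II, and MS023 blocks the enzymes of type I. Dexamethasone (Dex) is a synthetic hormone that activates the glucocorticoid receptor. The design asks how nascent transcription responds to the inhibitors and to Dex given with them. The 7 groups of 2 libraries were untreated cells carrying the 15 min label, GSK591 at 1 µM for 15 min, MS023 at 1 µM for 15 min, each inhibitor with 100 nM Dex for 15 min, and each inhibitor alone for 3 h, with a final DMSO concentration of 0.01%. Dex alone and a 3 h untreated control are not analysed here, so every effect of Dex stands beside an inhibitor and the 3 h groups are compared with 15 min cells. No label says that the libraries of a group came from separate cultures, so the p-values measure the spread between these libraries, which may be technical.

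Immediate early genes are switched on from poised promoters without new protein synthesis, and many of their products shape the later response. EGR1 and EGR3 are zinc-finger transcription factors, and SRF is the transcription factor that binds the CArG box in front of EGR1 and other early genes. IER2, IER3 and IER5 encode growth-factor- and stress-induced regulators, and MCL1 encodes an anti-apoptotic BCL2 family protein with a short half-life. ZFP36 (tristetraprolin), ZFP36L1 and ZFP36L2 bind AU-rich elements of mRNAs and bring them to the deadenylation and decay machinery. Glucocorticoids act through the glucocorticoid receptor, and ZFP36 is a known target of the receptor in airway epithelial cells.

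Promoters are shown for the pair of transcription factors that share the CArG box (EGR1 and SRF) and for the members that rose and fell most with Dex (ZFP36 and IER2). They are RefSeq windows (GRCh38.p14) of up to 250 bases before the gene start, 5′ to 3′ on the gene's strand, without bases inside the annotated gene. Capitals mark CArG boxes, the EGR motif GCGGGGGCG and the Sp1 motif GGGCGG, each searched on both strands.
EGR1, chr5:138465229-138465478, plus strand: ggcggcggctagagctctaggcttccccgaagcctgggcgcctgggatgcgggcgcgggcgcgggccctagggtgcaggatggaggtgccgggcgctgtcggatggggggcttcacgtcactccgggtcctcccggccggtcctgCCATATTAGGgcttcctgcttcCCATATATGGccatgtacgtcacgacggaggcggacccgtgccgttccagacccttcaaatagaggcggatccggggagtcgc
SRF, chr6:43171019-43171268, plus strand: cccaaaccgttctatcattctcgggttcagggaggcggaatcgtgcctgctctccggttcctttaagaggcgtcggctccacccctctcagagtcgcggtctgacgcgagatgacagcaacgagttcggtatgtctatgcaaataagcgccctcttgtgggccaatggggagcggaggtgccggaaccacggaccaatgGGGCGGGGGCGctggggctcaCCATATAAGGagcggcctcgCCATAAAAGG
ZFP36, chr19:39406597-39406812, plus strand: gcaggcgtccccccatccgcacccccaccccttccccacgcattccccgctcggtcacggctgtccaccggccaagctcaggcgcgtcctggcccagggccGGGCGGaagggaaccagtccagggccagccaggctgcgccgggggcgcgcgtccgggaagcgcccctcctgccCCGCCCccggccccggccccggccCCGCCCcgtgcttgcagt
IER2, chr19:13150161-13150410, plus strand: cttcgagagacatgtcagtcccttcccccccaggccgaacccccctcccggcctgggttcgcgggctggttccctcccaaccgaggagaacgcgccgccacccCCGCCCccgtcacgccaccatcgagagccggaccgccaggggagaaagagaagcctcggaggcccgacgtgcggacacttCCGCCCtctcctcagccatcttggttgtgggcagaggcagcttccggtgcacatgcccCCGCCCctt

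EGR1 held 2 CArG boxes, at 105 to 96 and at 83 to 74 bases before the start. SRF also held 2, at 30 to 21 and at 10 to 1 bases before the start, and an EGR motif at 49 to 41 bases that overlaps a Sp1 motif at 51 to 46 bases. Of 35116 promoter windows of 250 bases, 1.16% held a CArG box and 4.72% held the EGR motif. ZFP36 and IER2 each held 3 Sp1 motifs, which 42.6% of all windows hold. The full glucocorticoid response element was searched only as the exact letters AGAACA, any 3 bases and TGTTCT. This form was found in 0.00285% of all windows and in no window of the members. At that rate its absence from 8 windows says nothing about the members. The AGAACA part, which 12.4% of windows hold, was in no window of the members either. One of the windows of ZFP36L1, before the start at position 68793416 of chromosome 14, held the cyclic AMP response element TGACGTCA at 52 to 45 bases, as did 1.65% of windows. That start and its window lie inside the annotated gene (68787660 to 68796253, minus strand), and no other window of ZFP36L1 held the element. The exact letters TATAAA, held by 10.7% of windows, were in none of the windows used for the members. Other forms of the TATA box were not searched, and the window of IER5 holds TATATAAG, which these letters do not match. Of the 10 members, 6 were matched to a promoter entry used here, with 8 windows. No window of EGR3, IER3, MCL1 or ZFP36L2 was used. A match of letters is a description of the sequence and says nothing of binding.

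Total counts per library ranged from 5768312 to 9606938, of which the 10 genes took 5330 to 9600 counts, and 1 count was worth 0.105 to 0.153 CPM (a count relative to the library size, scaled by the trimmed mean of M-values, TMM). Mitochondrial genes took 39.8% of counts in MS023 15 min replicate 2 and 58.0% in GSK591 + Dex replicate 2, with the other libraries between. The replicates of GSK591 + Dex differed most, at a chi-square over degrees of freedom of 15.4, and those of the other groups had 2.15 to 6.05. The epithelial keratins KRT8, KRT18 and KRT7 stood at 307, 140 and 456 CPM in untreated cells, and AKR1C2 and AKR1B10, reductases abundant in A549 cells, at 172 and 257 CPM. KRT19 stood at 17.9 CPM, and the epithelial adhesion genes EPCAM and CDH1 at only 2.81 and 2.11 CPM. NKX2-1, a lung lineage factor, stood at 0 to 0.458 CPM. Summed leukocyte, endothelial and fibroblast markers stood at 4.40 to 7.17, 0.235 to 1.83 and 6.22 to 9.53 CPM, against 1160 to 1570 CPM for the epithelial markers. The monocyte marker CD14 (3.14 CPM untreated) and the collagen gene COL1A1 (6.16 CPM) made up most of the leukocyte and fibroblast sums, and the T cell marker CD3E had 0 counts in all 14 libraries.

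In untreated cells the members spanned a wide range of levels per kilobase of annotated exon. IER3 was highest at 94.8 CPM per kb, followed by ZFP36L1 at 64.6 and ZFP36 at 52.1 CPM per kb. IER2 (26.6 CPM per kb) and IER5 (25.4) overlapped between their libraries, and ZFP36L2 (24.2) and MCL1 (15.7) lay below them. SRF stood at 3.72 and EGR1 at 1.07 CPM per kb, the lowest of the tested members. The feature that was counted is not given in the sources used here. Per kb of gene span, a length chosen after seeing the data, part of this order turned. ZFP36 then stood at 40.3 and ZFP36L1 at 38.8 CPM per kb, with overlap between their libraries. IER2 at 18.2 lay below IER5 at 25.4 and ZFP36L2 at 21.2. IER3, whose merged exons fill its span, kept its 94.8 and stayed highest. MCL1 at 13.2, SRF at 1.53 and EGR1 at 0.877 CPM per kb of span stayed below the others. EGR3 had 0 to 4 counts per library in all 14 libraries, and its level was 0 to 0.429 CPM. A count of 0 allows up to 3 counts, so no difference in EGR3 was detectable at this depth.

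**Figure D1:**
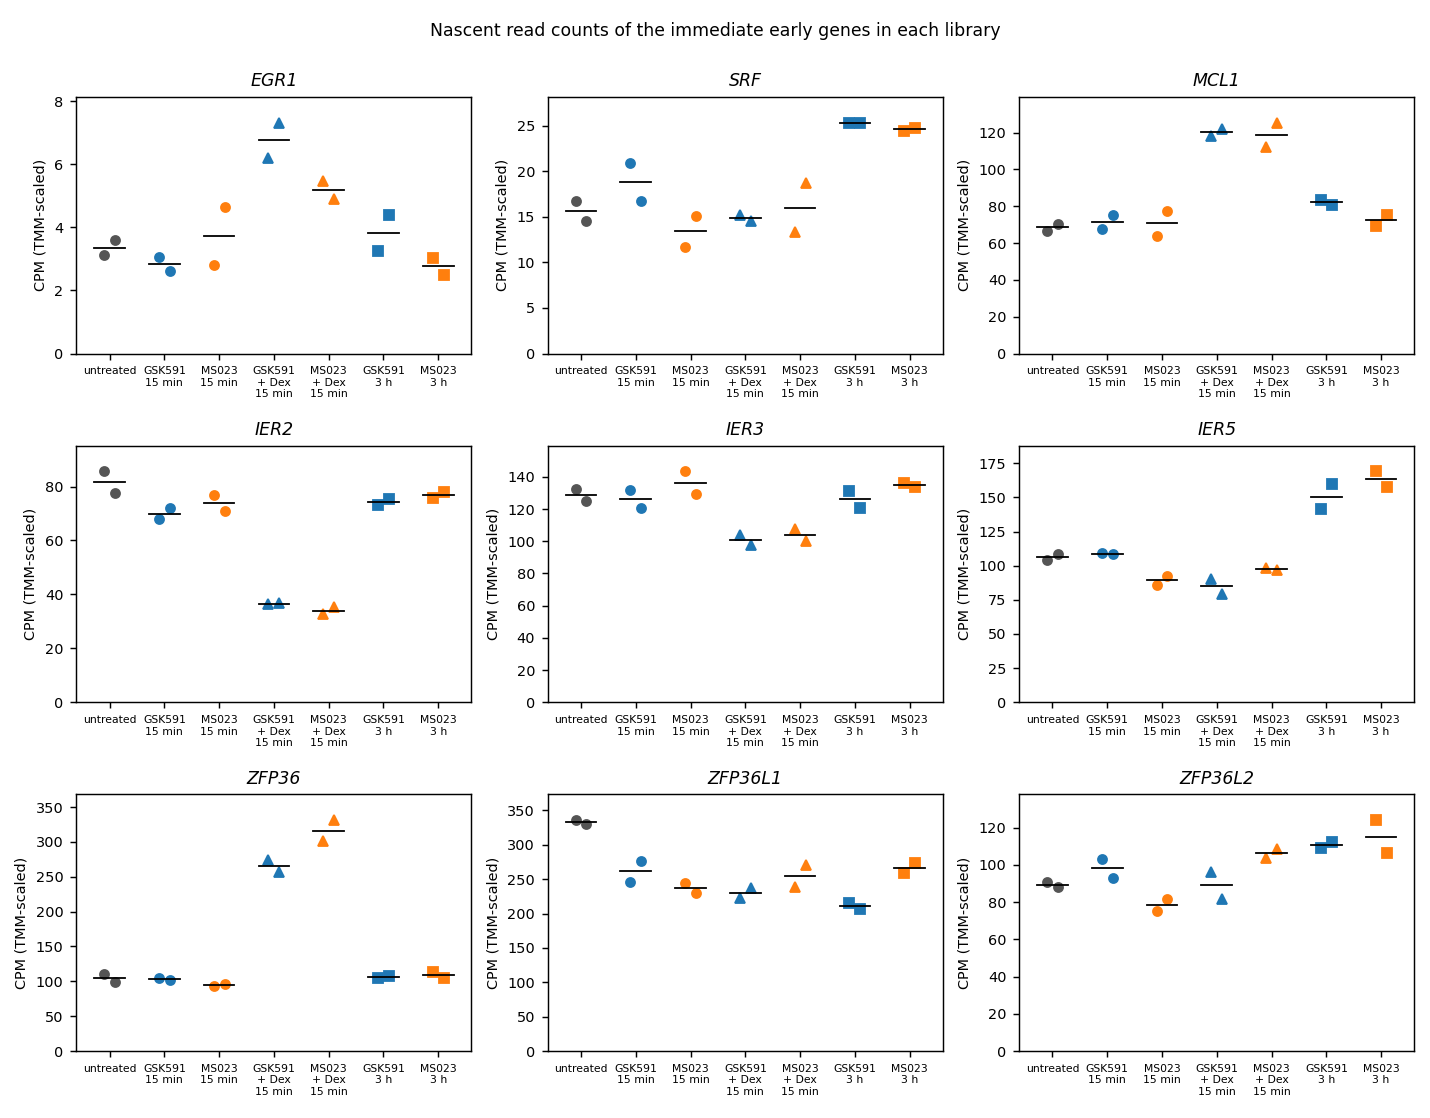
CPM (TMM-scaled, linear axis from 0) of the 9 tested genes in each of the 14 libraries, with a point per library and a line at the mean of the 2 libraries of a group. The 4 libraries given Dex (triangles) stand above the other 10 for ZFP36, MCL1 and EGR1 and below them for IER2 and IER3, the 4 libraries of 3 h (squares) stand above the rest for IER5 and SRF, and the untreated libraries stand above all others for ZFP36L1.

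With Dex, some tested members rose and some fell, and SRF and ZFP36L1 were called beside neither inhibitor. Beside GSK591, 6 of 9 members were called (edgeR's quasi-likelihood test, Benjamini-Hochberg adjusted p under 0.05 over all genes tested), 3 higher and 3 lower, where 3.70% of all genes tested were called, 1.43% higher and 2.27% lower. Beside MS023, 5 of 9 were called, 3 higher and 2 lower, against 8.97% of all genes, 5.88% higher and 3.09% lower. ZFP36 and MCL1 rose and IER2 and IER3 fell beside both inhibitors, EGR1 was called higher beside GSK591, IER5 was called lower beside GSK591, and ZFP36L2 was called higher beside MS023. The median absolute log2 fold change of the 9 members was 0.36 beside GSK591 and 0.44 beside MS023, against 0.21 and 0.23 over all genes tested. On scaling by library size alone, 99 genes were called higher and 1373 lower beside GSK591, and 536 higher and 1317 lower beside MS023, in place of 313 and 498, and 1289 and 676. No fold change of a called member changed sign under the settings tried. In bulk libraries a change in the share of cells that transcribe a gene and a change per cell cannot be told apart.

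ZFP36 (ENSG00000128016.5, chromosome 19, 39406813 to 39409412, plus strand) rose most. Its libraries read 111 and 98.4 CPM in untreated cells, 105 and 102 CPM with GSK591, and 93.2 and 96.1 CPM with MS023 at 15 min. With Dex they read 274 and 257 CPM beside GSK591 and 301 and 331 CPM beside MS023. The 4 Dex libraries therefore stood at 257 CPM or above and the other 10 at 113 CPM or below. The log2 fold change was 1.35 ± 0.10 (SE) beside GSK591 (2.56-fold, edgeR adjusted p 4.6e-13) and 1.74 ± 0.10 beside MS023 (3.34-fold, adjusted p 4.3e-16). The difference between those effects was -0.39 ± 0.14 with a 95% interval of -0.66 to -0.11, which did not pass the adjustment over all genes (edgeR adjusted p 0.20), and passed with library size without mitochondrial genes as the scale (adjusted p 0.045).

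MCL1 (ENSG00000143384.12, chromosome 1, 150574551 to 150579738, minus strand) rose with Dex by nearly the same amount beside either inhibitor. Its libraries read 66.7 and 70.4 CPM untreated, 67.6 and 75.1 CPM with GSK591 and 64.1 and 77.2 CPM with MS023 at 15 min. With Dex they read 118 and 122 CPM beside GSK591 and 112 and 125 CPM beside MS023, above the highest of the other 10 libraries (83.6 CPM). The log2 fold changes were 0.75 ± 0.10 (edgeR adjusted p 3.5e-06) and 0.76 ± 0.10 (adjusted p 7e-07). Their difference was -0.01 with a 95% interval of -0.30 to 0.28.

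EGR1 (ENSG00000120738.7, chromosome 5, 138465490 to 138469315, plus strand, with 2 exons) was low and its counts were few. It read 3.11 and 3.60 CPM untreated, 3.05 and 2.62 CPM with GSK591, and 2.80 and 4.64 CPM with MS023 at 15 min. With Dex it read 6.20 and 7.32 CPM beside GSK591 and 5.46 and 4.89 CPM beside MS023, so the 4 Dex libraries lay above the other 10, the lowest of them at 4.89 CPM and the highest of the others at 4.64 CPM. The log2 fold change beside GSK591 was 1.25 ± 0.29 (2.37-fold, edgeR adjusted p 0.0063). It was lost without GSK591 15 min replicate 2 (1.14, adjusted p 0.093) and without GSK591 + Dex replicate 2 (1.14, adjusted p 0.075). Beside MS023 it was 0.52 ± 0.28 with a 95% interval of -0.04 to 1.08 (adjusted p 0.29), and the difference between the inhibitors was 0.73 with an interval of -0.09 to 1.54 (adjusted p 0.54).

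IER2 (ENSG00000160888.6, chromosome 19, 13150415 to 13154908, plus strand) fell most with Dex, to less than the level in any library without it. It read 85.7 and 77.6 CPM untreated, 68.0 and 71.9 CPM with GSK591 and 76.7 and 71.1 CPM with MS023 at 15 min. With Dex it read 36.4 and 36.8 CPM beside GSK591 and 32.8 and 35.3 CPM beside MS023. The gap is wide, since the lowest of the other 10 libraries stood at 68.0 CPM. The fall was -0.94 ± 0.11 on the log2 scale beside GSK591 (edgeR adjusted p 7.1e-08) and -1.12 ± 0.10 beside MS023 (adjusted p 1.6e-10), and the difference between those was 0.19 with a 95% interval of -0.11 to 0.48. IER2 shares 946 exonic bases with the antisense gene AC011446.2, and the strand setting of the counting is not stated, so reads of the 2 genes cannot be told apart.

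IER3 (ENSG00000137331.11, chromosome 6, 30743199 to 30744554, minus strand, 2 transcripts whose exons merge to 1 block) fell less. Its 4 Dex libraries read 104 and 97.5 CPM beside GSK591 and 108 and 100.3 CPM beside MS023, and the other 10 libraries ranged from 121 to 143 CPM without overlap. The log2 fold change was -0.39 ± 0.10 beside MS023 (edgeR adjusted p 0.0045), and it was lost without MS023 15 min replicate 1 (adjusted p 0.18) or MS023 + Dex replicate 2 (adjusted p 0.12). Beside GSK591 it was -0.33 ± 0.10 (adjusted p 0.046), and no call remained without any 1 of the 4 libraries compared (adjusted p 0.053 to 0.36). The call beside GSK591 was also lost with DESeq2 (adjusted p 0.059), RLE scaling (0.054), no count filter (0.071) and only the groups compared (0.17). IER3 shares 359 exonic bases with its antisense gene IER3-AS1.

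IER5 (ENSG00000162783.10, chromosome 1, 181088712 to 181092899, plus strand, 1 exon) read 109 and 108 CPM with GSK591 and 90.4 and 79.3 CPM with GSK591 and Dex. That is a log2 fold change of -0.36 ± 0.10 (edgeR adjusted p 0.031), lost without GSK591 15 min replicate 1 (adjusted p 0.18) or replicate 2 (adjusted p 0.13), without GSK591 + Dex replicate 2 (adjusted p 0.36), or with only the groups compared (adjusted p 0.13). With MS023 it read 85.8 and 92.6 CPM alone and 98.3 and 96.9 CPM with Dex, a log2 fold change of 0.13 (95% interval -0.07 to 0.33). The difference between those effects was -0.49 ± 0.14 (adjusted p 0.077). It passed without GSK591 + Dex replicate 1 (-0.60, adjusted p 0.022).

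**Figure D2:**
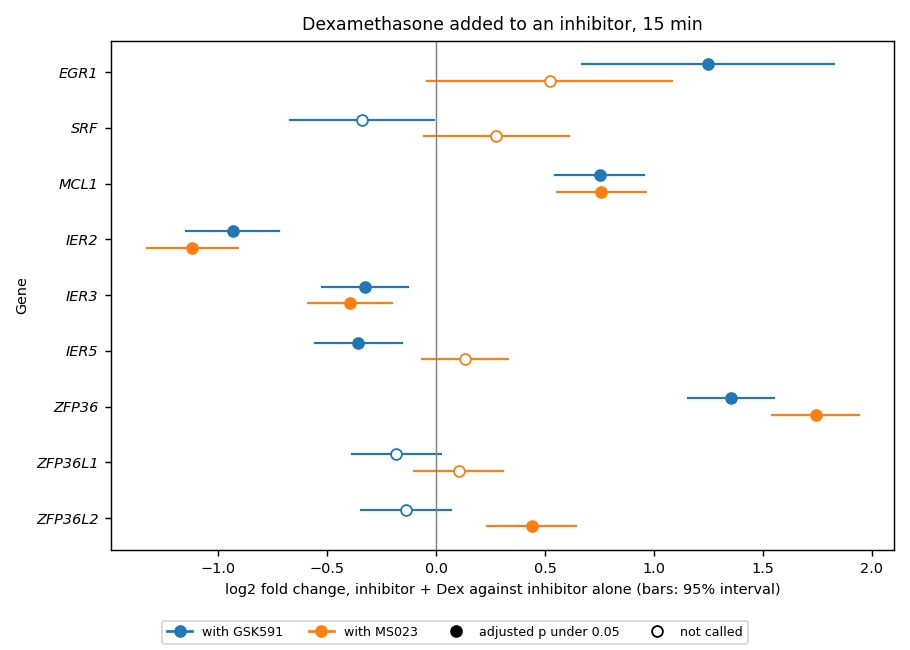
Log2 fold change (horizontal axis) of each gene when Dex was added to GSK591 (blue) or MS023 (orange) at 15 min, with bars for the 95% interval of the edgeR fit, filled points for an adjusted p under 0.05 and open points otherwise. ZFP36 and MCL1 lie right of 0 and IER2 and IER3 left of 0 beside both inhibitors, while the bars of ZFP36L1 cross 0 beside both.

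The ZFP36 family members differed in what Dex did to their counts. ZFP36L1 (ENSG00000185650.9, chromosome 14, 68787660 to 68796253, minus strand) had log2 fold changes of -0.18 (95% interval -0.39 to 0.02) and 0.10 (-0.10 to 0.31) with Dex and was not called. ZFP36L2 (ENSG00000152518.7, chromosome 2, 43222402 to 43226609, minus strand) read 75.3 and 81.8 CPM with MS023 and 104 and 109 CPM with MS023 and Dex. With GSK591 it read 103 and 93.1 CPM alone and 96.3 and 81.8 CPM with Dex. The groups thus separated beside MS023 and overlapped beside GSK591. The log2 fold changes were 0.44 ± 0.10 (edgeR adjusted p 0.003) beside MS023 and -0.14 ± 0.10 (adjusted p 0.54) beside GSK591. Against untreated cells ZFP36L2 was not called with MS023 and Dex (0.25 ± 0.10, edgeR adjusted p 0.13), though it passed with only the groups compared (adjusted p 0.036). With MS023 alone at 15 min it stood at -0.19 ± 0.10 against untreated cells (edgeR adjusted p 0.66). The call beside MS023 was lost without MS023 15 min replicate 1 (adjusted p 0.12), without MS023 + Dex replicate 2 (adjusted p 0.052) and with library size alone (adjusted p 0.27).

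The effect of Dex itself differed between the inhibitors for 1 of 9 members, against 1.15% of all genes. That member was ZFP36L2, with a difference (GSK591 minus MS023) of -0.58 ± 0.14 on the log2 scale (edgeR adjusted p 0.032), which did not pass with DESeq2 (adjusted p 0.071), library size alone (0.27) or only the groups compared (0.074). The call was kept in 3 of 8 fits that left out 1 library, and was lost without GSK591 15 min replicate 1 (-0.50, adjusted p 0.27), MS023 15 min replicate 1 (-0.52, adjusted p 0.31), GSK591 + Dex replicate 2 (-0.47, adjusted p 0.21), MS023 + Dex replicate 1 (-0.61, adjusted p 0.058) or MS023 + Dex replicate 2 (-0.55, adjusted p 0.17). SRF (ENSG00000112658.7, chromosome 6, 43171299 to 43181507, plus strand, 7 exons) had log2 fold changes of -0.34 and 0.28 with Dex, and their difference of -0.62 ± 0.23 had an adjusted p of 0.25. Its 4 Dex libraries read 15.2 and 14.5 CPM beside GSK591 and 13.4 and 18.7 CPM beside MS023, within the range of the untreated and 15 min libraries.

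Against untreated cells, GSK591 with Dex moved 7 of 9 members (3 higher, 4 lower) where 5.85% of all genes were called, and MS023 with Dex moved 5 of 9 (2 higher, 3 lower) where 7.64% were called. These comparisons share the untreated libraries. ZFP36 stood 1.34 ± 0.10 and 1.59 ± 0.10 above untreated on the log2 scale, and MCL1 0.81 and 0.80. IER2 stood at -1.16 ± 0.10 and -1.26 ± 0.10. ZFP36L1 was lower in both, at -0.54 ± 0.10 (edgeR adjusted p 0.00053) and -0.39 ± 0.10 (adjusted p 0.01), and the second was lost without untreated replicate 1 (adjusted p 0.12), untreated replicate 2 (adjusted p 0.069) or MS023 + Dex replicate 1 (adjusted p 0.21). IER3 was lower in both, at -0.35 (adjusted p 0.02) and -0.31 (adjusted p 0.035). With GSK591 and Dex the IER3 call was lost without untreated replicate 1 (adjusted p 0.23), untreated replicate 2 (adjusted p 0.073) or GSK591 + Dex replicate 2 (adjusted p 0.17), and with MS023 and Dex it was lost without any 1 of the 4 libraries (adjusted p 0.086 to 0.32). With GSK591 and Dex, EGR1 stood 1.01 ± 0.27 above untreated (adjusted p 0.019) and IER5 stood at -0.33 ± 0.10 (adjusted p 0.04). Both of these calls were lost without untreated replicate 1 (adjusted p 0.20 and 0.15), untreated replicate 2 (adjusted p 0.076 and 0.25) or GSK591 + Dex replicate 2 (adjusted p 0.13 and 0.35). Among the other settings, library size alone lost EGR1 and IER5 with GSK591 and Dex (adjusted p 0.067 and 0.052) and IER3 and ZFP36L1 with MS023 and Dex (adjusted p 0.20 and 0.079). Fitting only the groups compared lost IER3 and IER5 with GSK591 and Dex (adjusted p 0.052 and 0.078), and DESeq2 lost IER5 (adjusted p 0.055).

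At 15 min few members passed the test with an inhibitor alone. GSK591 gave 0 calls among 9 members (2 had an unadjusted p under 0.05), where 0.306% of all genes were called, and DESeq2 gave 1. MS023 gave 1 call, where 0.196% of all genes were called. That call was ZFP36L1, which read 336 and 330.4 CPM untreated and 245 and 229 CPM with MS023, a log2 fold change of -0.49 ± 0.10 (edgeR adjusted p 0.019). The call did not hold without untreated replicate 1 (adjusted p 0.28) or replicate 2 (adjusted p 0.21), nor without MS023 15 min replicate 1 (adjusted p 0.11) or replicate 2 (adjusted p 0.25), nor with library size alone (adjusted p 0.31). With GSK591 ZFP36L1 read 246 and 277 CPM, a log2 fold change of -0.35 ± 0.10 (edgeR adjusted p 0.16, and 0.03 with DESeq2). Between the inhibitors at 15 min, 0 of 9 members were called by edgeR or DESeq2, 3 had an unadjusted p under 0.05, and 1.10% of all genes were called.

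ZFP36L1 was the member whose untreated libraries stood apart. All 12 treated libraries lay below both untreated libraries, at 207 to 277 CPM (median 242) against 330.4 and 336 CPM. No such full separation held for the other 8 tested members. IER2 came closest, with 11 of the 12 treated libraries below both untreated libraries. ZFP36L1 is 5160 bases long in exons and shares no exonic sequence with another annotated gene.

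After 3 h, each inhibitor gave 4 of 9 members called against untreated cells, IER5, SRF and ZFP36L2 higher and ZFP36L1 lower, where GSK591 called 11.0% and MS023 called 7.63% of all genes. These comparisons share the untreated libraries, and the 3 h groups were set against cells with the 15 min label. The median absolute log2 fold change of the members was 0.26 with each inhibitor, against 0.24 and 0.22 over all genes.

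IER5 rose most clearly at 3 h. It read 104 and 109 CPM untreated, 142 and 160 CPM after 3 h of GSK591 and 169 and 158 CPM after 3 h of MS023, so the 3 h libraries stood above all of the others. The log2 fold changes were 0.50 ± 0.09 (edgeR adjusted p 0.00023) and 0.62 ± 0.09 (adjusted p 9.9e-06), and both calls were kept in each of the 4 fits that left out 1 library. SRF read 16.7 and 14.5 CPM untreated, 25.3 CPM in both libraries after 3 h of GSK591 and 24.5 and 24.7 CPM after 3 h of MS023. That was 0.69 ± 0.15 (adjusted p 0.00098) and 0.65 ± 0.15 (adjusted p 0.0028) on the log2 scale. The rise of SRF with MS023 was lost without untreated replicate 2 (0.57, adjusted p 0.091).

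The ZFP36 genes again went different ways at 3 h. ZFP36 stayed at 105 to 113 CPM, with log2 fold changes of 0.03 (95% interval -0.17 to 0.23) and 0.06 (-0.14 to 0.26). ZFP36L1 read 216 and 207 CPM after GSK591, a log2 fold change of -0.66 ± 0.10 (edgeR adjusted p 9.4e-06), and this call was kept in each fit that left out 1 library. After MS023 it read 260 and 273 CPM (-0.32 ± 0.10, adjusted p 0.038), and no call remained without any 1 of the 4 libraries (adjusted p 0.10 to 0.25) or with library size alone (adjusted p 0.23). ZFP36L2 read 109 and 112 CPM after GSK591 and 124 and 106 CPM after MS023, against 90.8 and 87.9 CPM untreated. Its log2 fold change with GSK591 was 0.31 ± 0.10 (adjusted p 0.036), lost without any 1 of the 4 libraries (adjusted p 0.11 to 0.23), with DESeq2 (0.074), with library size without mitochondrial genes (0.19) and with no count filter (0.059). With MS023 it was 0.37 ± 0.10 (adjusted p 0.014), lost without untreated replicate 1 (adjusted p 0.074), untreated replicate 2 (adjusted p 0.14) or MS023 3 h replicate 1 (adjusted p 0.31), and with library size alone (adjusted p 0.11).

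**Figure D3:**
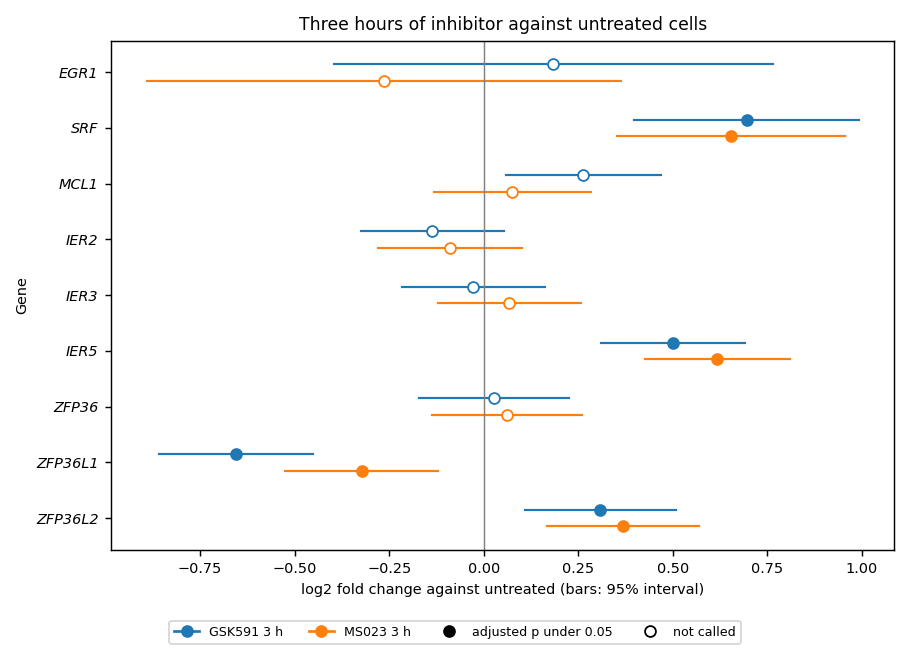
Log2 fold change (horizontal axis) of each gene after 3 h of GSK591 (blue) or MS023 (orange) against untreated cells, with bars for the 95% interval of the edgeR fit, filled points for an adjusted p under 0.05 and open points otherwise. SRF, IER5 and ZFP36L2 lie right of 0 and ZFP36L1 left of 0 with both inhibitors, and the bars of IER2, IER3, EGR1 and ZFP36 cross 0.

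IER2, IER3, EGR1 and MCL1 did not pass the test at 3 h. IER2 read 73.0 and 75.6 CPM with GSK591 and 75.8 and 77.9 CPM with MS023, with log2 fold changes of -0.14 (95% interval -0.33 to 0.05) and -0.09 (-0.28 to 0.10). IER3 had -0.03 and 0.07, and EGR1 had 0.18 (-0.40 to 0.76) and -0.26 (-0.89 to 0.36). MCL1 had 0.26 (0.06 to 0.47, edgeR adjusted p 0.089) and 0.08 (-0.13 to 0.28).

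Set against 15 min of the same inhibitor, 1 of 9 members was called with GSK591, where 6.40% of all genes were called, and 3 of 9 with MS023, where 12.0% were. IER5 was the call with GSK591 (0.47 ± 0.09 on the log2 scale, edgeR adjusted p 0.0012), and it was lost without GSK591 3 h replicate 2 (0.38, adjusted p 0.076). With MS023, IER5 rose by 0.88 ± 0.10 (adjusted p 1.3e-08), SRF by 0.89 ± 0.16 (adjusted p 7e-05) and ZFP36L2 by 0.56 ± 0.10 (adjusted p 0.00012), and these 3 calls were kept in each fit that left out 1 library. The rise of ZFP36L2 was lost with library size alone (0.40, adjusted p 0.06). Between the inhibitors at 3 h, 0 of 9 members were called by edgeR or DESeq2, 1 had an unadjusted p under 0.05, and 0% of all genes were called by edgeR. That 1 was ZFP36L1, lower with GSK591 by -0.33 (95% interval -0.54 to -0.13, adjusted p 0.51).

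**Figure D4:**
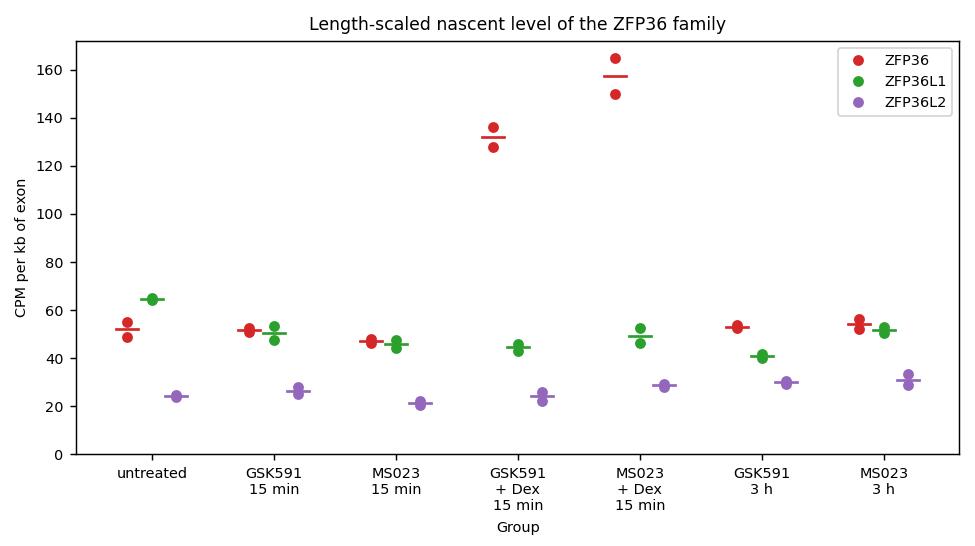
CPM per kb of annotated exon of ZFP36, ZFP36L1 and ZFP36L2 in each group, with a point per library and a line at the mean of 2 libraries, on a linear axis from 0. ZFP36L1 stands highest in untreated cells (64.6 CPM per kb of exon, though not per kb of gene span), and with Dex ZFP36 stands highest, at 132 CPM per kb beside GSK591 and 157 CPM per kb beside MS023.

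The order of the family's levels per length depended on the length taken. Per kb of exon in untreated cells, ZFP36L1 stood at 64.6, ZFP36 at 52.1 and ZFP36L2 at 24.2 CPM per kb. With GSK591 and Dex ZFP36 stood at 132, ZFP36L1 at 44.6 and ZFP36L2 at 24.1 CPM per kb, and with MS023 and Dex they stood at 157, 49.4 and 28.7 CPM per kb. In the 4 groups given an inhibitor alone ZFP36 and ZFP36L1 stood at 51.7 and 50.6 CPM per kb after 15 min of GSK591, 47.1 and 46.0 after 15 min of MS023, 53.1 and 41.0 after 3 h of GSK591, and 54.3 and 51.6 after 3 h of MS023. Libraries of ZFP36 and ZFP36L1 overlapped after 15 min of either inhibitor alone. Per kb of gene span the mean of ZFP36 lay above that of ZFP36L1 in untreated cells as well, at 40.3 against 38.8 CPM per kb. The untreated libraries of these genes overlapped per kb of span. ZFP36L2 had the lowest level of the 3 genes per kb of exon in each of the 7 groups. Per kb of span it stood at 26.3 against 24.6 CPM per kb for ZFP36L1 after 3 h of GSK591.

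Genes that work with the members were read from lists. Of 40 other immediate early genes, all tested, 11 rose and 4 fell with Dex beside GSK591 and 20 rose and 2 fell beside MS023, which is 37.5% and 55% of the list where 3.70% and 8.97% of all genes were called, with median log2 fold changes of 0.24 and 0.39 against -0.0045 and -0.016 over all genes. KLF6, a zinc-finger factor, went from 93.0 to 215 CPM and from 97.9 to 244 CPM, and DUSP1, a MAP kinase phosphatase, rose by 0.77 ± 0.11 and 1.07 ± 0.11 on the log2 scale (edgeR adjusted p 7.3e-06 and 1.9e-09). PLK2, a polo-like kinase, fell by 0.44 and 0.39. At 3 h, 8 rose and 8 fell with GSK591 and 6 rose and 5 fell with MS023 (40% and 27.5% of the list, where 11.0% and 7.63% of all genes were called), with median log2 fold changes of -0.18 and -0.044. JUN, a subunit of the AP-1 transcription factor, fell by 0.85 ± 0.10 and 0.69 ± 0.10 at 3 h. Of 13 glucocorticoid targets tested of 14 listed, 11 and 12 rose with Dex (84.6% and 92.3%), and PER1, a circadian repressor, rose by 1.89 ± 0.13 and 1.91 ± 0.12. KLF6, DUSP1 and SGK1 are in both lists.

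Of 9 tested partners of EGR and SRF (10 listed), 2 rose and 1 fell after 3 h of GSK591 (33.3% beside 11.0% of all genes). After 3 h of MS023, 2 rose and 0 fell (22.2% beside 7.63%). With Dex, 1 fell beside GSK591 (11.1% beside 3.70%) and 1 rose beside MS023 (11.1% beside 8.97%). The partner called lower after 3 h of GSK591 was MRTFA, at -0.35 ± 0.11 (edgeR adjusted p 0.033), and DESeq2 called 0 lower there. After 3 h of MS023 MRTFA had -0.35 ± 0.11 (edgeR adjusted p 0.052). ELK4, an ETS factor that binds with SRF, rose at 3 h by 0.81 ± 0.17 with GSK591 (edgeR adjusted p 0.001) and 0.78 ± 0.18 with MS023 (adjusted p 0.0024). IER5L, the paralog of IER5, rose with it at 3 h, by 0.40 ± 0.10 and 0.60 ± 0.10, and fell by 0.58 ± 0.11 with Dex beside GSK591. Of 17 cytoskeletal targets of SRF, 4 rose and 1 fell after 3 h of GSK591 and 2 rose and 1 fell after MS023, which is 29.4% and 17.6% of the list beside 11.0% and 7.63% of all genes, and the median log2 fold changes of the list were -0.016 and -0.055. ACTB and ACTG1, the cytoplasmic actins, rose by 0.51 and 0.39 after GSK591 and by 0.53 and 0.39 after MS023, and TAGLN2, an actin-binding protein, fell by 0.59 and 0.44. With Dex beside GSK591 ACTB fell by 0.86 ± 0.10 and ACTG1 by 0.97 ± 0.12, and of the list 1 rose and 3 fell (23.5% beside 3.70% of all genes). Beside MS023 ACTG1 fell by 0.49 ± 0.12, ACTB had -0.13 ± 0.10 (edgeR adjusted p 0.52), and of the list 0 rose and 2 fell (11.8% beside 8.97% of all genes), with edgeR and with DESeq2, while 4 had an unadjusted p under 0.05. The effects of Dex on ACTB differed by -0.73 ± 0.14 (GSK591 minus MS023, adjusted p 0.005).

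Among 22 decay partners of the ZFP36 proteins, 4 rose and 2 fell with Dex beside MS023 (27.3% beside 8.97% of all genes). With Dex beside GSK591, 0 were called by edgeR or DESeq2, and 3 had an unadjusted p under 0.05. At 3 h, 3 rose with each inhibitor (13.6% beside 11.0% and 7.63% of all genes). MAPKAPK2 and MAPK14, kinases of the p38 pathway that controls ZFP36 proteins, rose at 3 h by 1.29 ± 0.17 and 0.67 ± 0.15 with GSK591 and by 1.09 ± 0.17 and 0.75 ± 0.16 with MS023. With Dex beside MS023 they rose by 1.05 ± 0.17 and 1.10 ± 0.16 against the inhibitor alone. Against untreated cells they stood higher by 0.71 and 0.74 with GSK591 and Dex and by 1.05 and 0.90 with MS023 and Dex. Of 17 tested genes of the BCL2 family and MCL1 turnover (18 listed), 1 fell with Dex beside GSK591 (5.88% beside 3.70% of all genes). With Dex beside MS023, 1 rose and 1 fell (11.8% beside 8.97%). At 3 h, 2 rose and 1 fell with each inhibitor (17.6% beside 11.0% and 7.63%). DESeq2 called 0 of this list with Dex beside GSK591 and 1, higher, with Dex beside MS023. It called 1, higher, after 3 h of GSK591 and 0 after 3 h of MS023. BAD, a pro-apoptotic member, fell with Dex by 0.57 ± 0.14 and 0.48 ± 0.13 in the edgeR fit, where DESeq2 called 0 of the list lower. At 3 h edgeR called BAD higher, by 0.48 ± 0.12 with GSK591 and 0.38 ± 0.12 with MS023. BCL2L11, which encodes BIM, rose by 0.69 ± 0.18 with Dex beside MS023 (edgeR adjusted p 0.007).

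Across the 14 libraries the log2 CPM of IER2 ran opposite to that of ZFP36 (Pearson's r -0.975) and of MCL1 (r -0.947), and MCL1 ran with ZFP36 (r 0.945). IER5 ran with SRF (r 0.884). Among the 9957 genes averaging 10 CPM or more, the genes most like ZFP36 were DUSP1 (r 0.983), NFKBIA (r 0.975) and ZFAND5 (r 0.972). FAM166A (r 0.977) and EIF4G2 (r 0.967) were most like IER2, IRF2BP1 (r 0.967) and PPP1R9B (r 0.963) most like IER5, and RDH10 (r 0.964) most like SRF. These values describe 14 libraries that share treatments, depth and scaling, and for these members the 4 Dex libraries or the 4 libraries of 3 h form a cluster of their own.

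The authors' deposited tables compare each treatment with untreated cells with DESeq2. Over the 6 comparisons, the median standard error of the members' log2 fold changes in the authors' deposited tables was 0.148 to 0.157, against 0.0991 to 0.101 in the edgeR fits. The fold changes in the authors' deposited tables differed from those of edgeR by at most 0.114 on the log2 scale, and their signs matched for 6 to 9 of the 9 members. At an adjusted p under 0.05 the authors' deposited tables call fewer members than edgeR does in 5 of the 6 comparisons and as many in the other. After 15 min of GSK591 or MS023 the authors' deposited tables, made with DESeq2, call 0 members (1 and 2 at an unadjusted p under 0.05), where they call 0% and 0.00681% of genes, and edgeR called 0 and 1. After 3 h of GSK591 the authors' deposited table calls IER5 and SRF higher and ZFP36L1 lower, where it calls 6.07% of genes, and after 3 h of MS023 it calls IER5 higher, where it calls 3.17%, while edgeR called 4 members in each. With GSK591 and Dex the authors' deposited table calls ZFP36 and MCL1 higher and IER2 and ZFP36L1 lower, where it calls 1.36% of genes. There edgeR called 7 members, EGR1 among them. The authors' deposited tables give no adjusted p for EGR1 in the 3 h and Dex comparisons, so EGR1 could not be called in them. With MS023 and Dex the authors' deposited table calls ZFP36 and MCL1 higher and IER2 lower, where it calls 1.96% of genes, and edgeR called 5. For example, the authors' deposited tables give an adjusted p of 0.098 for SRF after 3 h of MS023 and of 0.49 for ZFP36L1 after 15 min of MS023.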

How the data were processed

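The PRO-seq data are whole-number read counts per gene deposited by the authors for 14 libraries, made with featureCounts 2.0.1 of Subread against hg38, per the submitters' processing notes. The strand setting, the counting feature, the aligner and the handling of duplicates are not given in the sources used here. The 6 deposited DESeq2 tables hold, per the file headers, log2 fold changes and their standard errors, p-values, a test score and a mean signal (baseMean), and served only for the closing comparison of the report. All 58780 gene identifiers matched GENCODE release 29 (GRCh38), which gave coordinates and exon lengths. No table column was left without a sample.

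The deposited counts, unchanged, went into the quasi-likelihood test of edgeR (version 4.0.16, with limma 3.58.1 and R 4.3.3) after TMM scaling and its expression filter. All 14 libraries entered 1 fit with a coefficient per group (7 residual degrees of freedom, biological coefficient of variation 0.0728). P-values were adjusted by Benjamini-Hochberg over the 21910 genes tested within each of 13 comparisons, at a threshold of 0.05. The standard error (SE) of a log2 fold change is its size divided by the square root of the F statistic, and 95% intervals follow from it. No spike-in was used here, and fold changes are relative to the other genes. Counting error sets a floor of 3 counts. Replicate numbers do not pair the libraries by any label, and over 21 pairs of groups the deviations of equal numbers correlated at -0.0703 to 0.10 (median 0.0201).

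Alternatives were DESeq2 1.42.0, median-of-ratios (RLE) factors, library size alone, library size without mitochondrial genes, no count filter, a fit of only the groups compared, a replicate block, leaving out each library in turn, and, chosen after seeing the data, levels per kb of gene span. The fitting functions were tested on simulated data. The 9 tested members were tested in every comparison, and not every value is printed. EGR3 was described by its counts alone. From each list at most the 3 genes of smallest adjusted p called in each direction, with a mean of at least 2 CPM, were named. The 3 genes with the highest Pearson's r of log2 CPM (prior count 2) to a member, among genes averaging 10 CPM or more, were taken as most like it, and some of these are printed. The members and lists were chosen with earlier results of these data known. Promoter windows come from RefSeq (GRCh38.p14).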

Additional observations from a re-analysis of the deposited data

Results flagged for a closer look

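The effect of Dex on ZFP36L2 differed between the inhibitors by a test of the difference itself, with a log2 difference (GSK591 minus MS023) of -0.58 ± 0.14 (edgeR adjusted p 0.032). Its libraries read 75.3 and 81.8 CPM with MS023 and 104 and 109 CPM with MS023 and Dex, against 103 and 93.1 CPM with GSK591 and 96.3 and 81.8 CPM with GSK591 and Dex. The MS023 15 min libraries, whose mean is the lowest of the 7 groups for ZFP36L2, had mitochondrial shares of 44.5% and 39.8%. GSK591 + Dex replicate 2 lay between them in ZFP36L2 and had the highest share, 58.0%. Without that library the difference was -0.47. The part of these shares in the difference was not tested. Of 7 other settings 4 kept the call, library size without mitochondrial genes among them. The adjusted p was 0.071 with DESeq2, 0.27 with library size alone and 0.074 with only the groups compared.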

How the results depend on the processing

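Of 117 tests of a member in a comparison, 37 were called, 19 of these under all 7 other settings and with each library left out, and no called fold change reversed. The 19 include ZFP36, MCL1 and IER2 in the 4 comparisons with Dex. Of the 80 not called, 8 were called under at least 1 setting and 1 with a library left out. With 15 min of GSK591 the number of members called was 1 instead of 0 with DESeq2, without a count filter and with only the groups compared. With 15 min of MS023 it was 0 with library size alone, 2 with library size without mitochondrial genes, and 0 to 0 when 1 library was left out, instead of 1. After 3 h of MS023 it was 2 with library size alone and 1 to 3 with 1 library left out, instead of 4. With MS023 and Dex against untreated it was 3 with library size alone and 3 to 4 with 1 library left out, instead of 5, and with GSK591 and Dex it was 4 to 7 with 1 library left out, instead of 7. With Dex added it was 3 to 5 with 1 library left out beside GSK591, instead of 6, and 3 to 5 beside MS023, instead of 5. For the difference between the Dex effects it was 0 with DESeq2, 0 with library size alone, 0 with only the groups compared, 3 with library size without mitochondrial genes, and 0 to 2 with 1 library left out, instead of 1. Between 3 h and 15 min of GSK591 it was 2 with DESeq2 and 2 with the replicate block, and 0 to 1 with 1 library left out, instead of 1. Equal replicate numbers do not pair the libraries, and the replicate block changed no other number of members called. DESeq2 gave no adjusted p for EGR1 in some comparisons. The cause of these shifts was not tested. Over all genes the number called moved by more than 1.5 times in each comparison, for example from 811 to 385 with only the groups compared and 1472 with library size alone for Dex beside GSK591, from 1965 to 1020 with DESeq2 for Dex beside MS023, from 2418 to 1251 and from 1672 to 917 with DESeq2 for 3 h of GSK591 and MS023. Over all genes the median fold change ranged over the comparisons from -0.208 to 0.164 on the log2 scale with library size alone. Levels per kb of gene span in place of exon length, an alternative chosen after seeing the data, put IER2 below ZFP36L2 in untreated cells. They also put the mean of ZFP36 above that of ZFP36L1, with overlapping libraries. EGR1 and EGR3 are limited by their counts, and groups of 2 libraries limit every comparison.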
